A study of Mus musculus with 6 samples.

Results

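Cluster 20 is a set of 777 cells that the authors annotated as dendritic cells and placed in cluster 20 of their clustering. They were taken by those annotation columns alone, from 1556 annotated dendritic cells and 58794 annotated cells in all. The other 779 dendritic cells form cluster 19. The cells came from liver tumors of male C57BL/6J wild type mice that carried H22 cells, a murine hepatocellular carcinoma line implanted into the liver. 3 mice had been exposed to chronic unpredictable mild stress and 3 were unstressed controls, with 1 droplet single-cell RNA library per mouse. All 6 mice bore the tumor, so stress was compared with control within tumor tissue, and no healthy liver was compared. The tumor is thus 1 transplanted line in an immunocompetent wild type host.

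Dendritic cells take up antigen in tissue and present it to T cells on MHC molecules. Conventional dendritic cells are divided into cDC1, which cross-present antigen on MHC class I and carry Xcr1 and Clec9a, and cDC2, which mainly present on MHC class II. When either kind matures, it switches on the chemokine receptor CCR7, which guides the cell along CCL19 and CCL21 to the draining lymph node, and the actin-bundling protein fascin (Fscn1), which lets it crawl. These migratory cells also express checkpoint and regulatory molecules such as CD200 and IL4I1.

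Cluster 20 held 20, 109 and 41 cells in control mice 1 to 3 and 71, 350 and 186 cells in stress mice 1 to 3. Control mouse 1 thus contributed the fewest cells and stress mouse 2 the most. The summed unique molecular identifiers (UMIs, 1 per captured RNA molecule) of the cluster ranged from 160847 in control mouse 1 to 2515859 in stress mouse 2. The median per cell ranged from 5354 to 8556 UMIs, and no cell had under 1000. Cluster 19 was shallower in 5 of the 6 libraries, with median UMI counts of 899 to 1564, and stood apart in stress mouse 2, where its median was 21873. No barcode of cluster 20 was shared between libraries, against 13 to 40 shared barcodes per pair of libraries over all cells. The control libraries were made with Cell Ranger 9.0.0 and the stress libraries with Cell Ranger 7.1.0. An effect of that version and an effect of stress cannot be told apart.

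The dendritic label held. All 10 pan-dendritic genes, among them Flt3, Zbtb46, H2-Aa and Cd74, had a higher mean in cluster 20 than in cluster 19 and in monocytes, and each was above both in 6 of 6 mice. Levels are given as CPM, the count of a gene scaled to a total of 1000000 summed UMIs in each mouse, and are compared for 1 gene between cells or mice, not between genes. H2-Aa, an MHC class II chain, had a mean level of 6695 CPM ± 1098 (SD, n = 6) in cluster 20, 443 ± 146 in cluster 19 and 2189 ± 958 in monocytes. Flt3, the growth factor receptor of the dendritic lineage, had 106 CPM ± 54.7 against 4.97 ± 3.88 and 2.76 ± 1.81. These genes were available to the clustering, so the contrast between clusters is a description and was not tested.

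The 3 genes that mark the cluster each had a higher mean there than in cluster 19 and in monocytes. Ccr7 (GRCm38, chr11:99144196-99155077, minus strand) had a mean of 744 CPM ± 373 in cluster 20, 39 ± 25.7 in cluster 19 and 8.05 ± 10.5 in monocytes. Ccl17, a chemokine that attracts CCR4-bearing T cells, had 964 CPM ± 484 in cluster 20 against 29.7 ± 34.1 and 62.1 ± 51.3. Ifitm1, an interferon-inducible membrane protein, had 1320 CPM ± 443 against 46.5 ± 16.3 and 58.2 ± 20.2, but inflammatory myeloid cells reached a mean of 1206 CPM, so Ifitm1 did not set cluster 20 apart from that class. Among the 15 genes with the largest ratio to the higher of cluster 19 and monocytes, of those with a mean of at least 50 CPM in cluster 20 and no Gm or Rik symbol, were the lectin-like receptor genes Klri1 (38.7-fold) and Klrd1 (35.5-fold), H2-Oa (31.2-fold), which encodes a chain of the modulator of peptide loading, the cDC2 lectin gene Cd209a (28.9-fold), the checkpoint receptor gene Btla (28-fold) and the chemokine gene Ccl22 (25.1-fold).

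Lists of most other cell types were low in cluster 20. The 12 monocyte and macrophage genes summed to 339 to 680 CPM per mouse, against 7931 to 9842 CPM in monocytes, and none of the 12 was highest in cluster 20. The 8 tumor genes summed to 27.1 to 168 CPM, with 4 of the 8 at 0, while in cluster 19 they summed to 449 to 761 CPM. The 8 T and NK genes summed to 0 to 277 CPM, the 6 B and plasma genes to 0 to 18.7, the 6 endothelial genes to 12.4 to 118 and the 6 hepatocyte genes to 0 to 2.78. Cluster 19 thus carried less of the dendritic genes and more of the tumor genes than cluster 20. The T and NK sum nevertheless had a higher mean in cluster 20 (156 CPM) than in monocytes (53.4) and cluster 19 (8.61). The 9 genes of the plasmacytoid dendritic list summed to 251 to 597 CPM, against 112 to 170 in cluster 19 and 154 to 233 in monocytes, and 8 of the 9 had their highest mean in cluster 20, but 1 of the 9 was above both classes in 6 of 6 mice. Control mouse 1, with 20 cells, stood apart in that list, with 149 CPM of Ly6d (0 to 0.586 CPM in the other mice), 43.5 of Ccr9 and 24.9 of Cox6a2.

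High levels of the migratory genes were held by a minority of the cells. The 777 cells were regrouped into 9 sub-clusters by Leiden clustering, without the genes that reached an unadjusted p of 0.05 between stress and control, so that Ccr7, Fscn1 and Cd200 did not enter. Sub-cluster 2 (192 cells) was led by Ccl22, Il12b, Nudt17, Il4i1 and Ccr7 and is called migratory-like, with 4 genes of the migratory list among its 10 leading genes. Its mean Ccr7 level was 2448 CPM ± 757 (SD, 5 mice with at least 5 cells), its mean Fscn1 level 796 ± 321, and 99.5% of its cells had a Ccr7 UMI. Sub-cluster 5 (62 cells) was led by Crispld2, Dscaml1, Adam11 and Syn3 and stays unnamed, since 1 of its leading genes, Slco5a1, was on the migratory list. Its levels of migratory genes were nonetheless high, with a mean Ccr7 of 2582 CPM ± 626 and Fscn1 of 1998 ± 309 over 3 mice and a Ccr7 UMI in 100% of cells. Sub-clusters 2 and 5 together made up 254 cells, or 20, 22.9 and 36.6% of cluster 20 in control mice 1 to 3 and 18.3, 37.4 and 35.5% in stress mice 1 to 3, and the groups overlapped.

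The remaining cells fell into sub-clusters with other leading genes. Sub-cluster 1 (233 cells) was led by Dcstamp, Fcgr4, Mgl2, Ccl6 and Il1r2 and carried much of the cluster's Ccl17 (mean 1578 CPM ± 657) and Ifitm1 (2684 ± 1035), with a mean Ccr7 of 208 CPM ± 198. Sub-cluster 3 (107 cells) was led by Cd209a and Clec10a together with the monocyte genes Ccr2 and Ly6c2, 2 markers of each kind, and stays unnamed. Sub-cluster 4 (87 cells) was led by Xcr1, Gcsam, Tlr3 and Cadm1 and is cDC1-like. Its mean Clec9a level was 334 CPM ± 60.7 and its mean Ccr7 level 65.1 ± 97. Sub-cluster 6 (48 cells) was led by the mitotic genes Aurkb, Kif11 and Knl1, with Top2a at 322 CPM ± 52.4. Fscn1 was near 0 in these 4 sub-clusters, with means of 1.79 to 6.46 CPM. Of sub-clusters 1 to 6, high mean levels of both Ccr7 and Fscn1 were thus found in sub-clusters 2 and 5, with a Fscn1 UMI in 64.1% and 95.2% of their cells. Sub-cluster 2 alone carries the name migratory-like, and the whole is called cluster 20 here. The name follows the leading genes, which were ranked against all other cells of cluster 20. It does not mean that sub-cluster 5 had lower mean Ccr7 or Fscn1 than sub-cluster 2.

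Sub-clusters 7, 8 and 9 carried genes of other cells. Sub-cluster 7 (28 cells) was led by Gzmb, Cd3g, Cd3d and Cd3e, with mean levels of 246 CPM ± 26.2 for Cd3e and 282 ± 64.3 for Trac, and at the same time held Ccr7 (1488 ± 380) and Fscn1 (595 ± 245). Its median of 12748 UMIs per cell was above that of sub-clusters 1 to 6, which ranged from 5410 to 8522. Sub-cluster 8 (11 cells, median 24743 UMIs) was led by Cox7b2 and Hmga2, and sub-cluster 9 (9 cells) by the endothelial genes Gata4 and Gpr182. The study's methods state that doublets were removed with Scrublet, and no further caller was run here. Where leaving out these 48 cells changed a call of a gene named below, the value is given beside it.

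**Figure D1:**
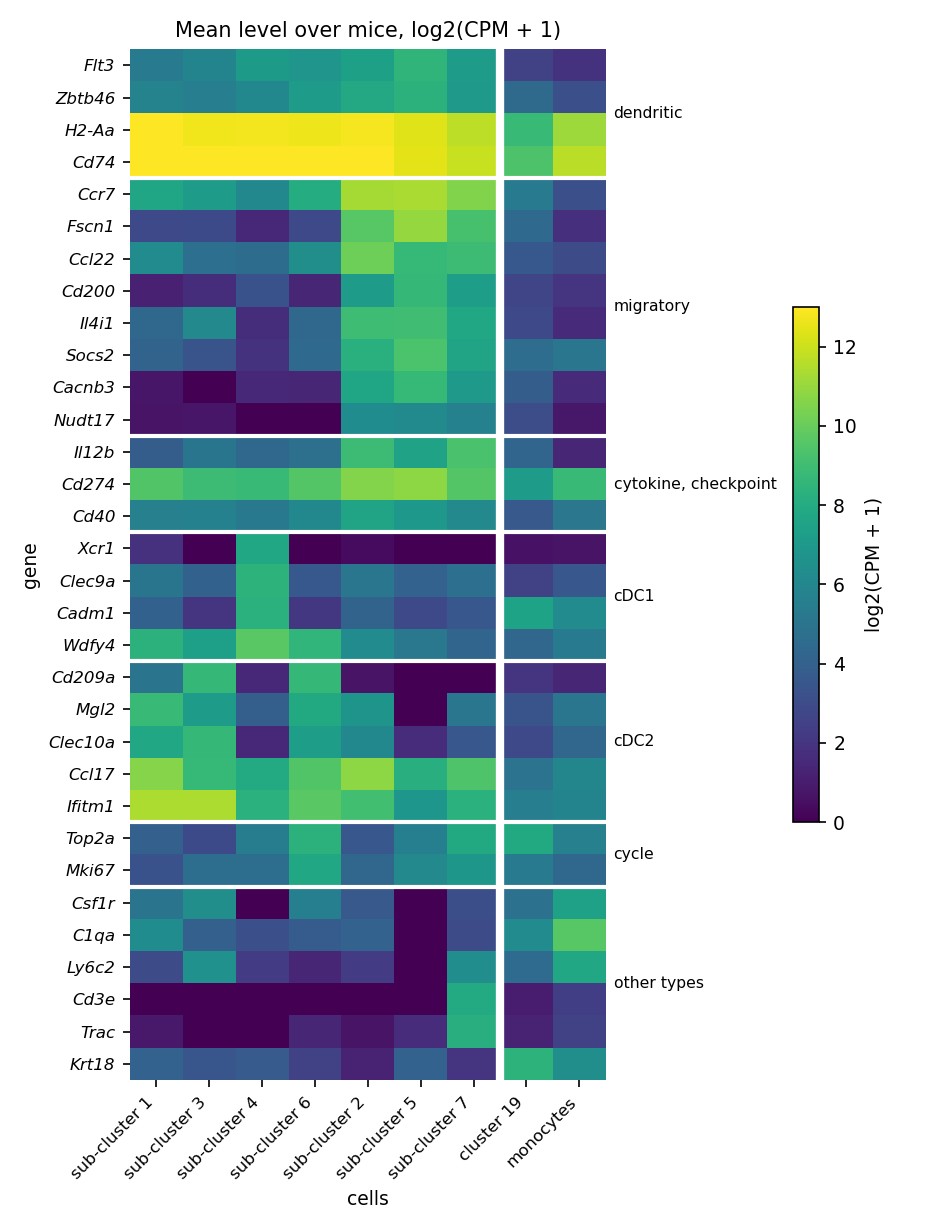
Mean level over mice on a log2(CPM + 1) colour scale for 32 genes (rows) in sub-clusters 1 to 7 of cluster 20, in cluster 19 and in monocytes (columns), with gene groups named at the right. Ccr7, Fscn1, Cd200, Il4i1 and Cacnb3 were high in sub-clusters 2, 5 and 7, Xcr1 in sub-cluster 4, and Cd3e and Trac in sub-cluster 7.

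Single cells were also scored after every cell had been thinned to 1000 UMIs, which removes the differences in depth. 256 cells (32.9%) had at least 3 of the 16 migratory genes and fewer than 3 of the cDC1 and of the cDC2 genes, 78 had 3 cDC1 genes only, 158 had 3 cDC2 genes only, and 241 met none of these. At this depth the overlap was small, with 5 cells meeting both the migratory and cDC1 criteria and 29 the migratory and cDC2 criteria. Without thinning the mean shares in control and stress mice were 60.3 and 74.2% (migratory), 51.9 and 49.4% (cDC1) and 72.9 and 74.2% (cDC2). Many cells then met more than 1 criterion, so the small overlap holds for thinned cells only. The criteria are ranges along a count, not types: after thinning 83 cells had 2 migratory genes and 52 had exactly 3.

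The first question was whether stress changed how many of these cells were present. Cluster 20 made up 0.19, 0.928 and 0.443% of all annotated cells in control mice 1 to 3 and 0.981, 3.71 and 1.76% in stress mice 1 to 3. Every stress mouse was above every control mouse, with means of 0.52% ± 0.375 (SD, n = 3) and 2.15% ± 1.41 (n = 3) and a difference of 1.63 percentage points (two-sided exact permutation test, p = 0.1). With 3 mice against 3, 0.1 is the smallest p this test can give. The exact binomial 95% intervals of control mouse 2 (0.762 to 1.12%) and stress mouse 1 (0.767 to 1.24%) overlapped, and such intervals cover counting error only. Without stress mouse 2 the difference was 0.849 percentage points.

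The order of the groups did not depend on the denominator. Of non-tumor cells the mean shares were 1.13% ± 0.609 in control and 3.77% ± 2.18 in stress mice, and of immune cells 2% ± 0.7 and 6.32% ± 3.04, with no overlap between groups in either case (exact p = 0.1 for each). Of dendritic cells cluster 20 made up 25.3, 40.5 and 25.9% in the controls and 50.4, 63.3 and 52.2% in stress mice. That is a mean of 30.6% ± 8.6 against 55.3% ± 6.99, a difference of 24.7 percentage points (exact p = 0.1). Since cluster 19 holds the other dendritic cells, this share rises when cluster 20 grows or cluster 19 shrinks. Cluster 19 held 59, 160 and 117 cells in control mice 1 to 3 and 70, 203 and 170 in stress mice 1 to 3. Shares of captured cells do not give cell numbers in the tissue.

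The make-up of cluster 20 was compared in the thinned cells. Cells with at least 3 migratory genes made up 25, 27.5 and 31.7% in the controls and 31, 39.7 and 43.5% in stress mice, and the groups overlapped (means 28.1% ± 3.39 and 38.1% ± 6.44, exact permutation p = 0.2, adjusted p = 0.6 over the 3 marker lists scored). Without thinning the means were 60.3% ± 16.7 and 74.2% ± 10.1. Cells with 3 cDC1 genes made up 11.8% ± 3.3 in control and 10.9% ± 1.47 in stress mice (exact permutation p = 0.9), and cells with 3 cDC2 genes 28.1% ± 7.85 and 25% ± 2.36 (exact permutation p = 0.5, adjusted p = 0.75). Because the cDC2 list includes the cluster markers Ccl17 and Ifitm1, the cDC2 share does not count cDC2 cells alone. In each pair of mice with the same number the share with 3 migratory genes was higher in the stress mouse. The smallest p this test can give is 0.1, so it could not have passed 0.05 for any shift between the kinds of dendritic cell.

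Among the genes scored for detection, Ccr7 and Ccl22 separated the groups both with and without thinning. In thinned cells a Ccr7 UMI was found in 15, 22.9 and 31.7% of cluster 20 cells in the controls and in 35.2, 50.3 and 45.2% in stress mice, with no overlap (exact p = 0.1). Without thinning the shares were 25, 33 and 48.8% against 59.2, 70.3 and 71%. In endothelial cells, which should lack the receptor, thinned shares were 0 in the 3 control mice, which allows up to 0.149 to 0.204% (3 cells of the cells scored), and 0.18 to 0.284% in the stress mice, at median depths of 3608 to 5832 UMIs per cell, far under the shares in cluster 20. Detection of Ccl22 gave groups that did not overlap either, with 5, 14.7 and 17.1% of thinned cells against 21.1, 19.4 and 25.3%, and 15, 30.3 and 26.8% against 33.8, 46.3 and 55.4% without thinning (exact p = 0.1 for both). Fscn1 (10, 11 and 14.6% against 15.5, 18.6 and 18.3%), Ccl17 and Flt3 did so in thinned cells but not without thinning. Without thinning the Flt3 difference had the opposite sign (-4.73 percentage points). Il12b separated the groups only without thinning. For Ifitm1, H2-Aa, Xcr1, Clec9a, Cd209a and Mgl2 the groups overlapped in both settings. No share over all genes was computed for detection, and in CPM 403 genes separated upward and 885 downward of 6387 tested.

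**Figure D2:**
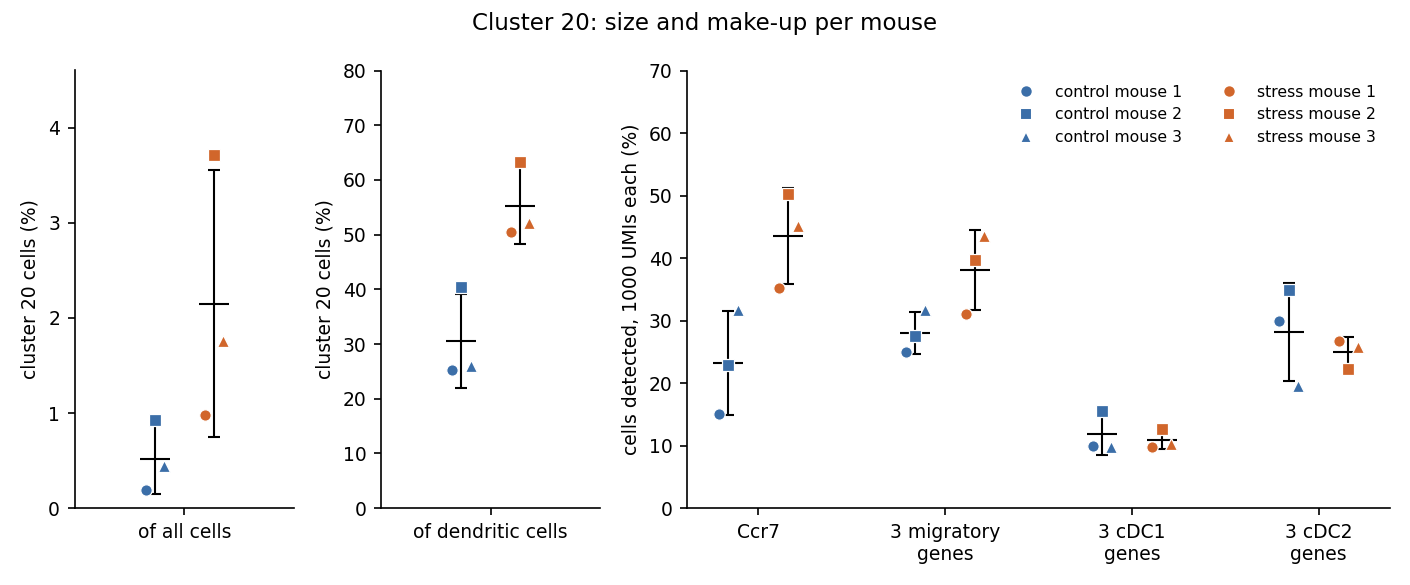
Share of all cells and of dendritic cells in cluster 20 (left and middle panels, percent) and share of cluster 20 cells, thinned to 1000 UMIs each, with a Ccr7 UMI or with at least 3 genes of a list (right panel, percent), 1 point per mouse with the mean and SD of 3 mice as black lines. Stress mice lay above control mice for both cluster shares and for Ccr7, and the groups overlapped for the 3 lists.

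Gene levels were then compared between stress and control in the summed UMIs of cluster 20. Of 6387 genes tested, 20 passed an adjusted p of 0.05 (0.313%), 10 higher and 10 lower in stress. At an unadjusted p of 0.05, 365 genes were higher (5.71%) and 490 lower (7.67%), and the median log2 fold change over all genes was -0.02. Groups that do not overlap were common: every stress mouse lay above every control mouse in CPM for 403 of the 6387 genes, and below for 885. Neither the labels nor the paper states a pairing of mice by number. The deviations of same-numbered control and stress mice from their group means correlated at 0.333, 0.198 and 0.15, against -0.251 to 0.152 for the other pairs. A fit with that number as a block called 169 genes, 76 higher and 93 lower, including all 20. The block rests on these same data, so its p-values are no independent support. The adjusted p with the block is given beside some values below, not for every gene whose call it changes. Leaving out each mouse in turn left 4 to 10 calls. All 20 genes kept their sign in the 6 fits, but Cmss1, Lars2 and Gphn were the 3 genes that passed in each of them. The 9 genes that passed in none were Odc1, Serpinb6b, Ccnd3, Inpp5d, Rasgef1b, Srgap3, Chn2, Ear2 and Marchf1. The highest adjusted p was 0.309. Of the other 8, Cdk8 passed in 5 of the 6 fits (without control mouse 2 its adjusted p was 0.0538), Tnfrsf4 in 2, and Oasl1, H1f4, Rpl10, Phf21a, Mideas and Ank in 1 each.

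Of the 10 genes that rose, 4 also rose in both of the other classes examined. Cmss1 (131, 91.9 and 71.2 CPM in control and 560, 742 and 783 in stress mice), Lars2, Cdk8 and Gphn had log2 fold changes of 2.97 ± 0.28 (SE), 2.59 ± 0.28, 2.53 ± 0.28 and 2.24 ± 0.25 in cluster 20, and 3.29, 2.67, 2.79 and 2.68 in monocytes, where each also passed, as it did in cluster 19. Rpl10 (1.24 ± 0.22) has many near-identical copies in the genome, so its counts are uncertain, and it passed in cluster 19 too (0.96, adjusted p = 0.0291). The change of Cmss1, Lars2, Cdk8 and Gphn was thus shared by all 3 classes tested.

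Oasl1, an interferon-inducible 2'-5'-oligoadenylate synthetase-like gene, had 0, 31.5 and 13.6 CPM in control and 189, 265 and 80.8 CPM in stress mice, with no overlap (log2 fold change 3.19 ± 0.56, adjusted p = 0.0377). Its log2 fold change was 2.73 in cluster 19 (adjusted p = 0.0502) and 1.71 in monocytes (adjusted p = 0.204). Serpinb6b, a protease inhibitor gene, had 131, 152 and 166 CPM against 302, 366 and 335 (1.24 ± 0.22, adjusted p = 0.0377). It passed in neither subset of sub-clusters. In sub-clusters 2 and 5 its means were 683 and 696 CPM (0.32 ± 0.29, adjusted p = 0.624). In sub-clusters 1, 3, 4 and 6 they were 34.5 and 107 CPM (1.46 ± 0.34, adjusted p = 0.076). Odc1, the ornithine decarboxylase that starts polyamine synthesis, had 131, 206 and 115 CPM against 420, 405 and 394 (1.48 ± 0.24, adjusted p = 0.0364, and 1.26 in monocytes with adjusted p = 0.123). All 3 genes were higher in every stress mouse than in any control mouse, as was the linker histone gene H1f4 (2.57 ± 0.47, adjusted p = 0.0433). Tnfrsf4, the gene of the T cell costimulatory receptor OX40, rose from 18.7, 11 and 23.7 CPM to 67.1, 67.2 and 72 (2.22 ± 0.33, adjusted p = 0.0231). Without the 48 cells of sub-clusters 7 to 9 its log2 fold change was 1.43 (adjusted p = 0.181), and H1f4 (2.14, adjusted p = 0.0696) and Serpinb6b (0.86, adjusted p = 0.0981) did not pass either. In monocytes Tnfrsf4 had a log2 fold change of 2.02 (adjusted p = 0.109). All 5 T and NK genes tested were positive as well, with a median of 1.20, and their median was 1.57 in monocytes. Of the 348 Tnfrsf4 UMIs, 145 lay in sub-cluster 2 and 82 in sub-cluster 5, where Cd3e was at 0, and 97 in sub-cluster 7. In sub-clusters 2 and 5 Tnfrsf4 had 175, 55.6 and 66.1 CPM in control and 67.3, 170 and 110 CPM in stress mice. The groups overlapped there (log2 fold change 0.96 ± 0.43, adjusted p = 0.317). In sub-clusters 1, 3, 4 and 6 it was at 0 in the controls and at 3.24, 1.31 and 1.12 CPM in stress mice. Whether T cell RNA contributed to the Tnfrsf4 difference was not tested.

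The 10 genes that fell included regulators of signalling and of antigen presentation. Marchf1, the ubiquitin ligase that removes MHC class II and CD86 from the surface of immature dendritic cells, had 68.4, 60.3 and 44.1 CPM in control and 14.1, 17.9 and 15.8 CPM with stress (log2 fold change -1.69 ± 0.29, adjusted p = 0.0377). Inpp5d, the gene of the lipid phosphatase SHIP1, had 323, 296 and 312 CPM against 141, 132 and 109 (-1.19 ± 0.21, adjusted p = 0.0387). Ank, a pyrophosphate transporter gene, had 68.4, 91.9 and 136 CPM against 35.3, 27.8 and 24 (-1.74 ± 0.29, adjusted p = 0.0364). All 3 were lower in each stress mouse than in any control mouse. The other 7 were Ear2 (-1.61), Chn2 (-1.59), Srgap3 (-1.57, without sub-clusters 7 to 9 -1.16 with adjusted p = 0.0652), Rasgef1b (-1.51), Mideas (-1.47), Phf21a (-1.30) and the cyclin D3 gene Ccnd3 (-1.19), with adjusted p-values of 0.0227 to 0.0394.

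The Marchf1 difference lay outside sub-clusters 2 and 5. In sub-clusters 1, 3, 4 and 6 Marchf1 had 132, 88.9 and 71.8 CPM in control and 25.9, 28.3 and 23.5 CPM with stress (log2 fold change -1.66 ± 0.31, adjusted p = 0.0359). In sub-clusters 2 and 5 it was at 0 in the 3 control mice and at 0 to 8.71 CPM in stress mice. Of the 14 MHC class II genes tested, Marchf1 was the 1 gene with an unadjusted p under 0.05, and the median of the list was -0.10. At that level 5.71% of all genes were higher and 7.67% lower, so a count of 1 in 14 lies near the share over all genes. H2-Aa itself had 5701, 6569 and 8828 CPM against 6266, 6653 and 6152 (log2 fold change -0.06 ± 0.25, adjusted p = 0.96).

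The migratory list leaned upward without a call in the test without the block. Of 15 genes tested, 14 had a positive log2 fold change, and the median was 0.56. The list median was 0.42 in monocytes and 0.51 in cluster 19, with 13 genes tested in each. At an unadjusted p of 0.05, 5 genes were higher in cluster 20 (Ccr7, Fscn1, Ccl22, Cacnb3 and Cd200) and none lower, against 5.71% and 7.67% of all genes. With the block 4 of the 15 genes passed, against 76 higher and 93 lower over all 6387 genes. Ccr7 had 267, 429 and 678 CPM in control and 751, 1140 and 1200 CPM in stress mice, with no overlap (1.24 ± 0.32, adjusted p = 0.126, with the block 0.00261, without sub-clusters 7 to 9 0.0456). Cd200, a ligand that restrains myeloid cells, had 18.7, 30.2 and 44.1 CPM against 60.1, 97.4 and 110 (1.60 ± 0.33, adjusted p = 0.0655, with the block 0.00447). Fscn1 had a log2 fold change of 0.90 (adjusted p = 0.264, with the block 0.0478), and Ccl22, which attracts regulatory T cells, one of 1.35 (adjusted p = 0.264, with the block 0.0136). In a sum over cells, more cells with Ccr7 and more Ccr7 per cell cannot be told apart.

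**Figure D3:**
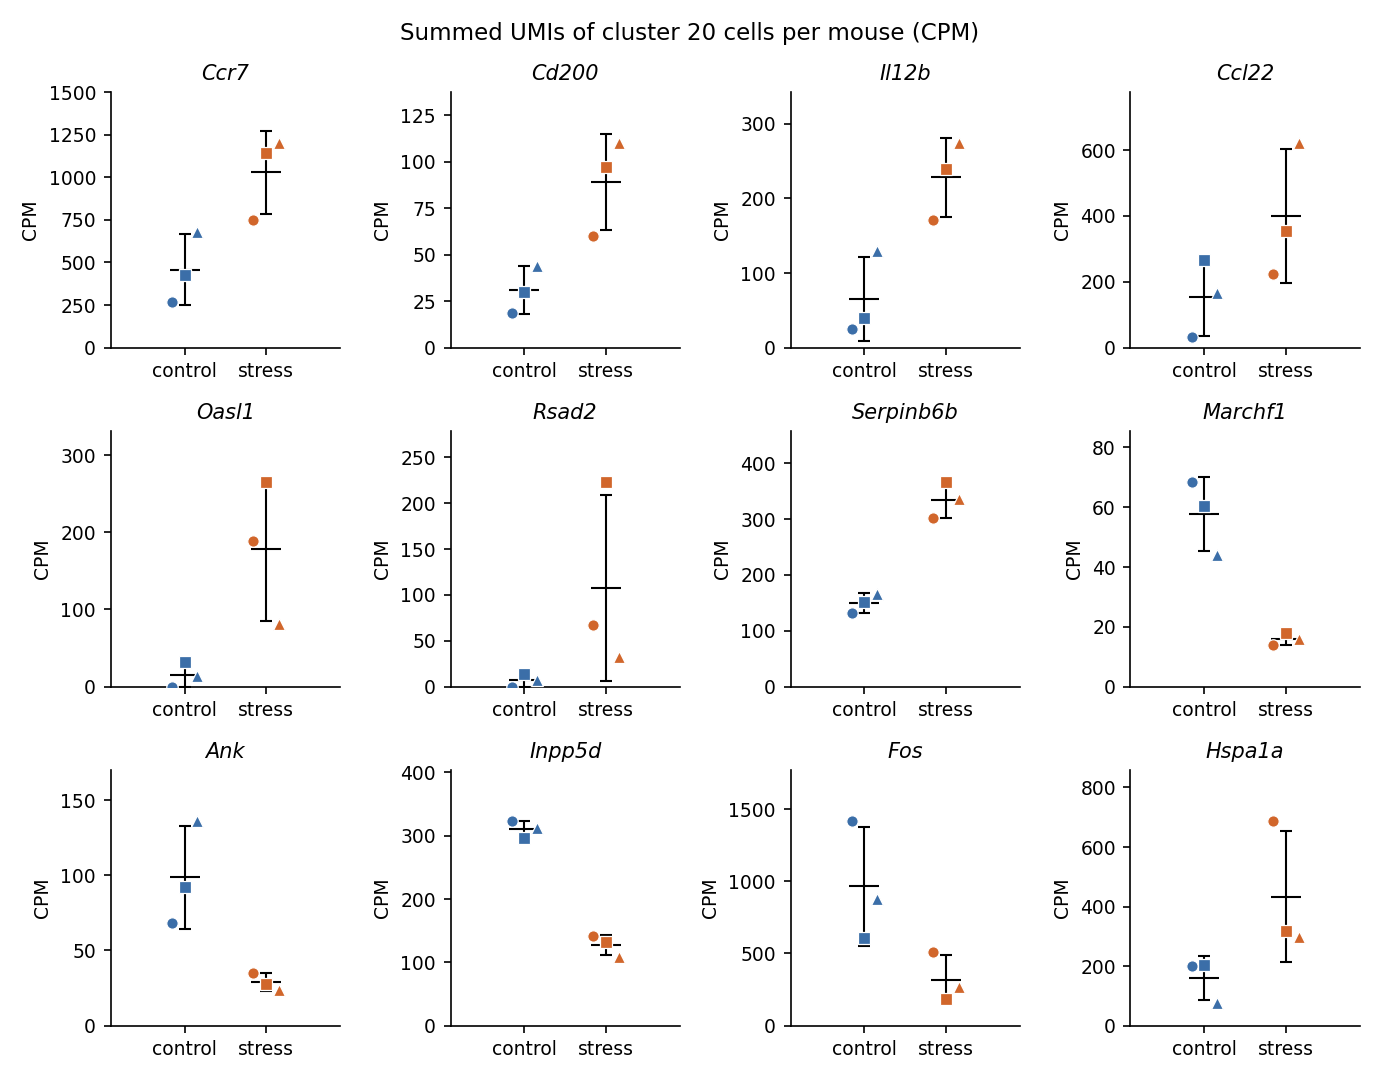
Level in CPM of 12 genes in the summed UMIs of cluster 20, 1 point per mouse (circle, square and triangle for mice 1, 2 and 3 of each group, blue for control and orange for stress), with the mean and SD of 3 mice as black lines. Ccr7, Cd200, Il12b, Oasl1, Rsad2, Serpinb6b and Hspa1a were higher, and Marchf1, Ank, Inpp5d and Fos lower, in every stress mouse than in any control mouse, while the groups overlapped for Ccl22. Of all 6387 genes tested, 403 were ordered upward and 885 downward in this way.

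Within cluster 20 the fold change of Ccr7 was larger in the sub-clusters with little Fscn1, although the difference in CPM was larger in sub-clusters 2 and 5 (means 25.7 and 286 CPM against 2043 and 2777 CPM). In sub-clusters 1, 3, 4 and 6 Ccr7 had 13.2, 36.4 and 27.6 CPM in the controls and 236, 322 and 299 CPM in stress mice, from 1, 18 and 5 UMIs against 73, 490 and 267. The log2 fold change was 3.36 ± 0.31 (adjusted p = 0.000113), and Ccr7 was 1 of 19 genes that passed among the 4959 tested in these cells (0.383%). Leaving out each mouse in turn gave 3.25 to 3.72. Fscn1 and Cd200 were near 0 in both groups there, with 13.2, 6.06 and 0 CPM against 3.24, 1.31 and 3.36 for Fscn1 and 13.2, 4.04 and 0 against 3.24, 3.28 and 2.24 for Cd200. Ccl22, another gene high in sub-clusters 2 and 5, had 0, 48.5 and 11 CPM against 32.4, 104 and 134 (1.75 ± 0.53, adjusted p = 0.159), and Il12b was at 0 in the controls and at 0, 58.5 and 55.9 CPM in stress mice. Serpinb9, a granzyme B inhibitor gene, also passed (26.4, 76.8 and 93.8 CPM against 233, 212 and 194, 1.65 ± 0.30, adjusted p = 0.0295), as it did in cluster 20 without sub-clusters 7 to 9 (means 161 and 351 CPM, adjusted p = 0.0231). These subsets were chosen after the data were seen, by their levels of Ccr7 and Fscn1.

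In sub-clusters 2 and 5 Ccr7 had 2447, 1897 and 1784 CPM in control and 3205, 2641 and 2487 CPM in stress mice. The groups did not overlap, but the log2 fold change of 0.52 ± 0.21 did not pass (adjusted p = 0.268). The difference between the effects was 2.70 ± 0.38 (adjusted p = 5.15e-05), and Ccr7 was 1 of 3 genes past that threshold among 4378 tested (0.0685%), beside Hilpda and Ero1a. Ccr7 itself was used to group the subsets, and in the lower one it rested on 1, 18 and 5 UMIs in the controls. The p-value for Ccr7 is thus a description and no support for a difference between the cells. The level in stress mice outside sub-clusters 2 and 5 lay below that within them, which follows from the grouping and is no separate result.

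Ccr7 was also higher in stress than in control mice in several other classes. In cluster 19 it had 4.95, 12.6 and 34.5 CPM in control and 62.5, 57.6 and 62 CPM in stress mice, in NK/T cells 32.7, 26 and 30.1 against 122, 57.5 and 121, in monocytes 0, 3.08 and 0 against 7.97, 28 and 9.2, and in endothelial cells 0.182, 0.618 and 1.39 against 6.12, 8.68 and 5.11. In B cells and tumor cells the groups overlapped. The levels of 236 to 322 CPM in sub-clusters 1, 3, 4 and 6 of stress mice were above those in each of these classes, and the part of free RNA in them was not tested. The stress effect on Ccr7 in cluster 20 did not differ detectably from that in monocytes (log2 difference -1.87, adjusted p = 0.585) or in cluster 19 (-0.63, adjusted p = 0.86).

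**Figure D4:**
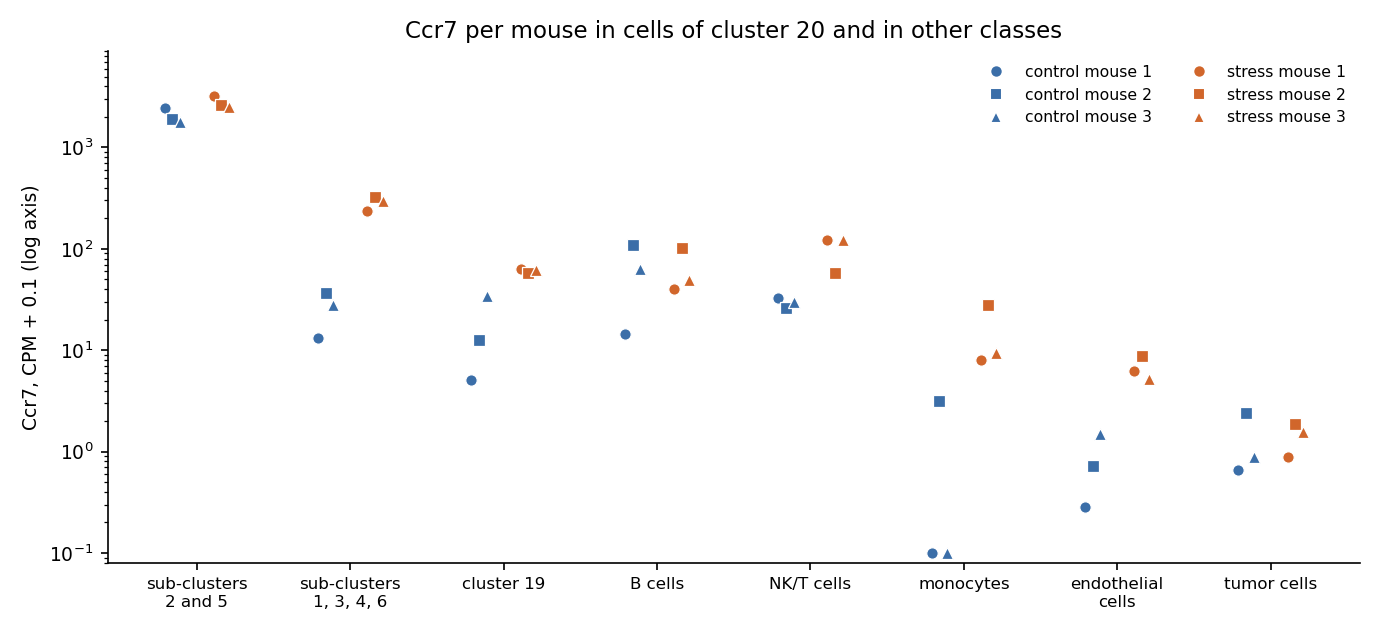
Ccr7 level per mouse, as CPM + 0.1 on a log axis, in 2 subsets of cluster 20 and in 6 other classes, 1 point per mouse. In sub-clusters 1, 3, 4 and 6 the stress mice lay at 236 to 322 CPM and the control mice at 13.2 to 36.4 CPM, whereas sub-clusters 2 and 5 lay between 1784 and 3205 CPM in both groups.

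Within sub-clusters 2 and 5 themselves, 50 of 1958 genes passed (2.55%), 20 higher and 30 lower in stress, and 32 passed with the block (14 higher, 18 lower). Control mouse 1 had 4 such cells, and leaving out each mouse in turn gave 8 to 41 calls. More genes were then higher than lower without control mouse 3 (5 and 3) and without stress mouse 1 (22 and 19), 2 (6 and 3) or 3 (9 and 4), so the balance of the 2 directions rests on single mice. Cd200 had 58.3, 118 and 104 CPM in control and 162, 272 and 268 CPM in stress mice (adjusted p = 0.0465). Il12b, the gene of the p40 chain of IL-12 and IL-23, had 233, 201 and 312 CPM against 431, 467 and 634 (adjusted p = 0.0464), and Il1rn, the interleukin-1 receptor antagonist gene, 117, 76.4 and 66.1 against 108, 202 and 303 (adjusted p = 0.0411). Bcl2a1b, an anti-apoptotic gene, had 1573, 2244 and 1964 CPM against 4107, 3770 and 3561 (adjusted p = 0.0161), and it passed in cluster 20 without sub-clusters 7 to 9 as well (1.11, adjusted p = 0.035). Cxcl2, a neutrophil chemokine gene, had 4835, 347 and 2002 CPM against 80.8, 170 and 307 (adjusted p = 0.00703). The groups did not overlap for Cd200, Il12b, Bcl2a1b and Cxcl2 and overlapped for Il1rn.

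Cytokine and chemokine genes were next compared in the whole of cluster 20. Of 6 cytokine genes tested, 3 reached an unadjusted p of 0.05, all higher in stress, with a list median of 0.45, and the 3 passed with the block. Among all 6387 genes 5.71% were higher at the unadjusted level, and 76 were called higher with the block. The list median was 0.78 in monocytes (6 genes) and 0.80 in cluster 19 (5 genes). Il12b had 24.9, 39.8 and 129 CPM in control and 171, 239 and 274 CPM with stress (log2 fold change 1.92, adjusted p = 0.0859, with the block 0.00228). Il1b had 740, 2260 and 1669 CPM against 3187, 3224 and 2702 (1.05, adjusted p = 0.202, with the block 0.0143), and Il1rn had a log2 fold change of 1.49 (adjusted p = 0.108, with the block 0.0118). Of 12 chemokine genes, Ccl22 and Cxcl10 were higher and Cxcl2 lower at an unadjusted p of 0.05. Cxcl10, a ligand of CXCR3 on effector T cells, had 6.22, 332 and 190 CPM against 389, 1026 and 574 (1.88, adjusted p = 0.202, with the block 0.00261), and it passed in sub-clusters 2 and 5 alone (1.55, adjusted p = 0.0356). Cxcl9, the other CXCR3 ligand named here, had 0, 245 and 261 CPM against 141, 618 and 565, where stress mouse 1 lay below control mice 2 and 3 (1.38, adjusted p = 0.391, with the block 0.01).

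Interferon-stimulated genes leaned the same way, with 10 of 11 positive, 4 higher at an unadjusted p of 0.05, none lower and a median of 0.48. At that level 5.71% of all genes were higher and 7.67% lower. The list median was 0.41 in monocytes (11 genes) and 0.72 in cluster 19 (7 genes). In cluster 20 Oasl1 was the 1 called gene. Rsad2, the antiviral protein viperin, had 0, 13.7 and 6.78 CPM in control and 67.1, 223 and 32.8 CPM in stress mice (3.62 ± 0.84, adjusted p = 0.1, with the block 6.66e-05). Without sub-clusters 7 to 9 Rsad2 passed with no block (3.84, adjusted p = 0.0456). Isg15, a ubiquitin-like modifier, had 6.22, 167 and 159 CPM against 323, 596 and 289 (1.81 ± 0.50, adjusted p = 0.159, with the block 0.00687), and it passed in sub-clusters 2 and 5 alone (1.98, adjusted p = 0.0199). In Rsad2 and Isg15 the groups did not overlap, and control mouse 1 was the lowest library for each.

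The promoters of 3 of these interferon-responsive genes are shown at the sequence that interferon regulatory factors are known to bind, the interferon-stimulated response element. Each window is printed 5′ to 3′ on the strand of the gene, with the letters that match the motif (GAAA, any 2 bases, GAAA, searched on both strands) in capitals. The sequences are from RefSeq for GRCm38.p6. In Rsad2 the match lies on the opposite strand, and the Isg15 window overlaps other matches of the same motif.
Rsad2: gtccaacTTTCATTTTCagaaaac
Isg15: ggaaaagGAAACCGAAAcagaaaa
Cxcl10: cgctttgGAAAGTGAAActtacct
These lie at chr12:26456556-26456579, chr4:156200874-156200897 and chr5:92349086-92349109, all on the minus strand, with the match starting 120, 72 and 213 bases before the annotated start. Of 12 interferon-stimulated genes with a promoter window in the table, 7 held a match (58.3%), against 1079 of 27025 genes overall (3.99%). The Oasl1 window held no match of these letters, and Ccr7 had no entry. Of 10 migratory genes with a window 1 held a match to this motif and 1 to the NF-kB motif (GGGAA, any 3 bases, CC), which 6.59% of all genes held. A match describes the letters in the window and says nothing of binding.

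Antigen presentation and costimulation genes included members higher and members lower at an unadjusted p of 0.05, a level at which 5.71% of all genes were higher and 7.67% lower. Of 14 MHC class I pathway genes tested, 3 were higher (B2m, Psmb8 and Psmb9) and none lower, with a median of 0.30. H2-K1, a classical class I heavy chain gene, had 2580, 2601 and 2845 CPM in the controls against 1768, 1839 and 1911 with stress, lower in every stress mouse than in any control mouse (-0.45 ± 0.21, adjusted p = 0.379). Psmb8, an immunoproteasome subunit, had 354, 766 and 566 CPM in control and 768, 1025 and 1132 CPM in stress mice, with control mouse 2 and stress mouse 1 all but equal (0.87, adjusted p = 0.206, with the block 0.0182). Of 8 costimulation genes Cd40 and Tnfsf4 were higher and Tnfsf9 lower at that level, and of 12 inhibitory genes Cd200 was higher and Socs3 lower. Of 10 cDC1 genes tested, Wdfy4, which cross-presentation requires, was lower, with 373, 431 and 387 CPM against 145, 236 and 146 (-1.08 ± 0.24, adjusted p = 0.093, with the block 0.00852, without sub-clusters 7 to 9 0.0468), and the median of the list was 0.07. Of 12 cDC2 genes Sirpa was lower (-0.54, adjusted p = 0.323), with a median of -0.35.

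Immediate early genes, which are switched on within minutes by receptor signals, leaned lower in stress. Of 12 tested, 11 were negative, 7 were lower at an unadjusted p of 0.05 and none higher, with a median of -0.85. At that level 5.71% of all genes were higher and 7.67% lower. In the whole cluster none of the 12 passed without the block, and Fos, Egr1, Ier2 and Nr4a1 passed with it. Over all 6387 genes 93 were called lower with the block. Fos had 1417, 607 and 878 CPM in control and 509, 182 and 268 CPM in stress mice (-1.52 ± 0.40, adjusted p = 0.131, with the block 0.000272). In sub-clusters 2 and 5 alone Fos passed with no block, with 466, 472 and 434 CPM against 296, 146 and 113 (-1.53 ± 0.32, adjusted p = 0.0155). In monocytes of the same mice its log2 fold change was -1.49 and in cluster 19 it was -1.25, neither past the threshold. The median of the 12 genes was -0.52 in monocytes and -0.10 in cluster 19.

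Glucocorticoid-induced genes were of interest because chronic stress raises corticosterone. Of 9 tested, 8 were negative and 5 were lower at an unadjusted p of 0.05, none was higher, and the median was -0.72. At that level 5.71% of all genes were higher and 7.67% lower. The list median was -0.60 in monocytes and -0.09 in cluster 19. Dusp1, a phosphatase gene that is also an immediate early gene, had 1467, 762 and 1201 CPM in control and 532, 418 and 343 CPM in stress mice (-1.32 ± 0.29, adjusted p = 0.0859, with the block 0.00383). Fkbp5, a co-chaperone of the glucocorticoid receptor, had 274, 52.1 and 102 CPM against 74.2, 30.2 and 38.7, where the groups overlapped (-1.39, adjusted p = 0.291, with the block 0.0156). Heat shock genes leaned the other way, with 8 of 8 positive, 6 higher at an unadjusted p of 0.05 and a median of 0.70. Hspa1a, an inducible HSP70 gene, had 199, 204 and 74.6 CPM against 687, 317 and 297 (1.52 ± 0.40, adjusted p = 0.132, with the block 0.00449). Without sub-clusters 7 to 9 Hspa1a passed with no block (1.98, adjusted p = 0.0448), as did Hspa1b and Hsp90aa1, in a fit where 43 of 5637 genes passed (0.763%). In that fit 7 of the 8 genes were higher and none lower at an unadjusted p of 0.05, while of all genes tested 6.88% were higher and 8.36% lower. In sub-clusters 2 and 5 alone Hspa1a passed as well (2.52, adjusted p = 0.00629).

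**Figure D5:**
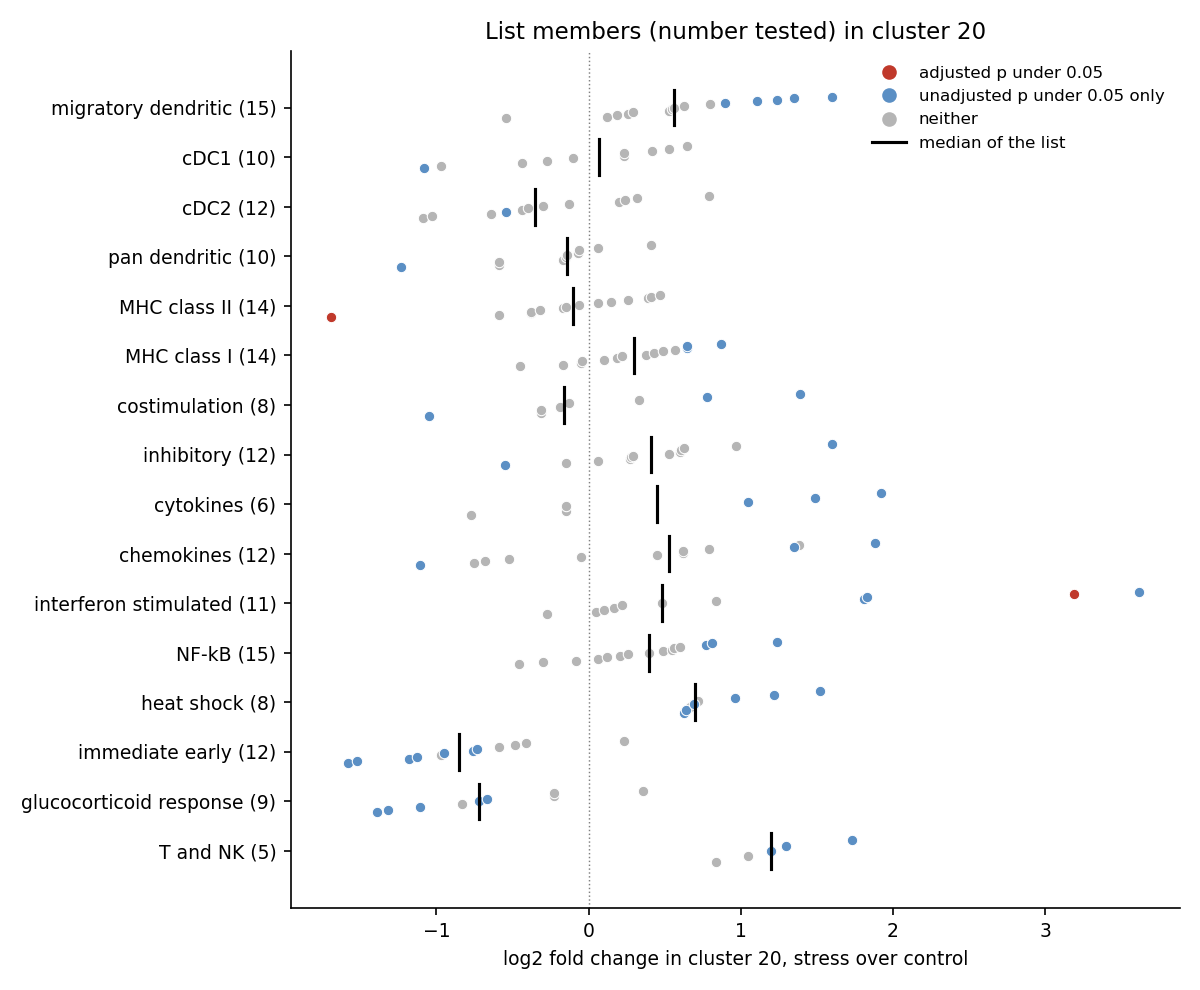
Log2 fold change of stress over control in cluster 20 for the tested genes of 16 lists, 1 point per gene, with the number tested beside the name and the list's median as a black line; red points passed an adjusted p of 0.05 and blue points an unadjusted p of 0.05 only. Among these lists, the medians of the immediate early (-0.85) and glucocorticoid response (-0.72) lists lay furthest below 0, and that of the T and NK genes (1.20) furthest above it.

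The stress effects of cluster 20 were finally set against those of the other myeloid cells of the same mice. Against monocytes 11170 genes were tested for a difference between the effects and 0 passed (0%), with 812 at an unadjusted p of 0.05 by edgeR and 1 call by DESeq2. Against cluster 19, 9230 genes were tested and 0 passed (0%), with 526 at an unadjusted p of 0.05 by edgeR and 6 calls by DESeq2. The call against monocytes was Cxcl2 (log2 difference -1.41 ± 0.31, adjusted p = 0.0225 by DESeq2 and 0.0991 by edgeR). Those against cluster 19 were Cxcl2 (-1.84), Odc1 (1.33), Serpinb9 (1.43), Hmgb2, Pkib and Runx1, with adjusted p of 0.0212 to 0.0478 by DESeq2 and 0.394 to 0.471 by edgeR. The 2 tools thus differed on these genes, and a lack of calls by edgeR does not show that the effects were alike.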

How the data were processed

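Single cells from liver tumors of 6 mice (3 control, 3 stress) had been captured with the 10x Chromium system. The authors' deposited values are unnormalized counts of UMIs for each gene in each cell, made with Cell Ranger against mm10 (version 9.0.0 for control and 7.1.0 for stress libraries, per the submitters' processing notes), together with a cell annotation. The study's methods state that doublets were removed with Scrublet and that cells were clustered with Seurat after Harmony integration. For each mouse the counts of its cluster 20 cells were added up. The sums entered edgeR's quasi-likelihood test (version 4.0.16, under R 4.3.3, with filterByExpr and TMM, Benjamini-Hochberg over all genes tested). DESeq2 1.42.0 was an alternative. Differences between stress effects were tested with the mouse as a term. Shares were tested over mice by exact two-sided permutation. Sub-clusters came from 2000 variable genes, 15 components and Leiden clustering (leidenalg 0.10.2) at resolution 0.5. Replicate numbers come from the sample titles. Same-numbered mice had correlated deviations (0.333, 0.198 and 0.15, against -0.251 to 0.152 for the other pairs). Neither the labels nor the paper states a pairing, and a fit with the number as a block is given beside some values. Named genes were the calls with the largest fold changes whose groups did not overlap, members of 35 marker and pathway lists, and genes leading a cluster or sub-cluster. Fits on subsets of sub-clusters, and the genes Hilpda and Ero1a, were chosen after the values were seen. The cells and lists were chosen with earlier results of these data known. Gene positions are from GENCODE M21, which held 32061 of 34099 gene IDs. The tests were tried on simulated data.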

Additional observations from a re-analysis of the deposited data

Results flagged for a closer look

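The stress effect on 3 genes differed between the sub-clusters with little Fscn1 (1, 3, 4 and 6) and sub-clusters 2 and 5, by edgeR's test of the difference between the effects in sums of the same mice. For Ccr7 the log2 difference was 2.70 (adjusted p = 5.15e-05), and with each mouse left out in turn it was 2.62 to 2.94. The subsets were grouped by the levels of Ccr7 and Fscn1, so for Ccr7 this is a description only.

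Hilpda, a lipid droplet gene induced by hypoxia, had a log2 difference of 2.30 (adjusted p = 0.00122, and 1.93 to 2.73 with each mouse left out). In sub-clusters 2 and 5 it had 1107, 410 and 925 CPM in control and 148, 206 and 206 CPM in stress mice, and in sub-clusters 1, 3, 4 and 6 it had 39.6, 230 and 580 against 460, 376 and 504. Hilpda was among the genes used for the sub-clustering, so its p-value is a description as well. Ero1a, an oxidoreductase gene of the endoplasmic reticulum that hypoxia also induces, had a log2 difference of 3.48 (adjusted p = 0.0014). It had 816, 62.5 and 293 CPM in control against 13.5, 9.67 and 26.1 CPM in stress mice in sub-clusters 2 and 5, from 14, 9 and 31 UMIs against 1, 8 and 15. In sub-clusters 1, 3, 4 and 6 it had 26.4, 66.7 and 55.2 CPM against 64.7, 30.2 and 90.6 (log2 fold change 0.20, adjusted p = 0.908). Without control mouse 1, which had 4 cells in sub-clusters 2 and 5, its log2 difference was 2.96 (adjusted p = 0.0524).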

How the results depend on the processing

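The differences in the share of cluster 20 and of cells with 3 migratory genes kept their direction in every fit. With each mouse left out in turn the difference was 0.849 to 2.21 percentage points of all cells, 20.7 to 29.7 of dendritic cells and 7.27 to 13.6 for cells with 3 migratory genes. The small differences for 3 cDC1 genes (-0.902) and 3 cDC2 genes (-3.17) ranged from -1.92 to 1 and from -7.48 to 0.195, both turning positive without control mouse 2, and the cDC2 difference was 1.32 without thinning. The cause was not tested.

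The count of 20 genes was 214 with no filter on low counts, 86 by DESeq2, 169 with the replicate block, 31 without cells with 3 tumor genes, 43 without sub-clusters 7 to 9 and 10 with 20 cells per mouse, where 2697 genes were tested. It was 4 to 10 with each mouse left out. The 0 calls for a difference from monocytes became 94 with no filter, 1 by DESeq2 and 0 to 4 with a mouse left out, and the 0 from cluster 19 became 47, 6 and 0 to 2.

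With 3 mice a group, 20 cells in control mouse 1 and Cell Ranger versions that follow the groups, small effects could not be resolved. With the mice paired by number, the smallest p of a share is 0.25.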

Other observations

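Receptors through which stress hormones and tryptophan metabolites act were also measured in cluster 20. Of the 6 adrenergic pathway genes tested none reached an unadjusted p of 0.05 in either direction between stress and control, with a median log2 fold change of -0.30. Of the 3 aryl hydrocarbon receptor pathway genes tested 1 was lower at that level, with a median of -0.08. Both medians stand beside -0.02 over all genes tested, of which 5.71% were higher and 7.67% lower at that level.

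The remaining lists were counted in the same way, at an unadjusted p of 0.05 without the block. At that level 5.71% of all genes were higher and 7.67% lower, and several of the counts lie near these shares. Of 15 NF-kB pathway genes 3 were higher and none lower (median 0.40), and of 6 cell cycle genes 2 were higher (median 0.79). Without sub-clusters 7 to 9 the cell cycle median was 0.22, with 1 of 5 genes higher. Of 14 cytoskeleton and motility genes 2 were higher and 1 lower (median 0.01), and of 15 dendritic transcription factor genes 2 were lower (median -0.07). Of 9 pattern receptor genes 1 was higher (median -0.06), of 6 chemokine receptor genes 1, Ccr7, was higher (median 0.36), and of 10 pan-dendritic genes 1, Bcl11a, was lower (median -0.14). Of 9 monocyte and macrophage genes 1 was higher and 2 were lower (median -0.20).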
